A study of Mus musculus with 12 samples.

Results

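A set of 10 genes that mark monocyte-derived and lipid-associated macrophages (Trem2, Gpnmb, Cd9, Cd63, Spp1, Lgals3, Itgax, Ccr2, Lyz2 and Cd68) was followed through the livers of mice on a fast-food diet. The genes were chosen by name, and all 10 were found among the 54532 genes of the count tables. RNA was sequenced from whole liver of male PPARγ flox/flox mice, which carry loxP sites in both copies of Pparg. At 8 weeks of age, mice received either AAV8.TBG.PI.Cre, in which Cre recombinase is driven by the TBG promoter, active in hepatocytes (PPARγ-KO), or AAV8.TBG.PI.eGFP (littermate controls, labelled WT), so the floxed alleles and a viral vector were shared by both genotypes. All mice then took the fast-food diet (FFD), rich in saturated fat, cholesterol and sucrose with sugared drinking water, for 2 or 5 months, and there were 3 libraries in each of the 4 groups. Cre was driven in hepatocytes, whereas the 10 genes are known mainly from macrophages, cells in which the vector was not designed to act.

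Macrophages of the liver include the resident Kupffer cells, which maintain themselves in the sinusoids, and cells that arise from blood monocytes recruited through the chemokine receptor CCR2. In fatty liver, some of the recruited cells take on a lipid-associated state, known for the lipid receptor TREM2, the lysosomal glycoprotein GPNMB, the tetraspanins CD9 and CD63, the secreted protein osteopontin (Spp1) and galectin-3 (Lgals3). None of these genes belongs to 1 cell type alone. Lyz2 and Cd68 are used by macrophages in general, Itgax (the integrin CD11c) also by dendritic cells, and Cd9, Cd63 and Spp1 also by cholangiocytes and other cells. In RNA from whole liver, fewer cells of a type and less RNA per cell cannot be told apart.

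Library totals ran from 16367775 to 27452284 counts. Levels are given as CPM, the counts of a gene per 1000000 counts of the TMM-normalized library size. A gene was called changed at a Benjamini-Hochberg adjusted p below 0.05 in the edgeR quasi-likelihood test over all genes tested. The labels do not say that the repeats of a group were separate mice, so p-values measure only the spread between these libraries. Pparg, the targeted gene, had 39.0 ± 1.92 CPM in WT and 56.2 ± 8.79 CPM in KO-labelled libraries at 2 months, and 38.6 ± 2.47 against 85.1 ± 8.95 CPM at 5 months (SD, n = 3 each). It was thus higher and not lower where deletion was labelled (edgeR adjusted p = 0.0309 and 2.57e-06). Counts were given for whole genes, so reads of the deleted exons could not be separated, and every direction below follows the labels. Plin2, which coats lipid droplets and is a known target of PPARγ, was lower where deletion was labelled, at 1054 ± 141 against 641 ± 53.6 CPM at 2 months and 1178 ± 13.6 against 698 ± 15.2 CPM at 5 months (SD, n = 3 each, edgeR adjusted p = 0.0110 and 1.25e-05). WT replicate 1 at 2 months stood farthest from its group, with a chi-square per gene of 28.7 and 25.0 against the other libraries, which differed from each other by 9.41 (sampling noise alone would give about 1). No pair of libraries agreed within sampling noise.

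The region in front of 4 of the genes is shown because Trem2 and Gpnmb had the most alike levels of the 10 over the libraries, whereas at 5 months Cd68 was called lower between genotypes and Spp1 was not. Each sequence is the 250 bases before the RefSeq start site (GRCm38.p6, the assembly behind mm10), read 5′ to 3′ on the strand of the gene, and none of the 4 windows overlaps an annotated exon. Capitals mark a match on either strand to GAGGAAG, the core bound by the myeloid factor PU.1 and other ETS proteins, or to TGANTCA. The latter is a loose form of the AP-1 motif, which has C or G in the middle, and takes any base there.
Trem2 (chr17:48346151-48346400, plus strand): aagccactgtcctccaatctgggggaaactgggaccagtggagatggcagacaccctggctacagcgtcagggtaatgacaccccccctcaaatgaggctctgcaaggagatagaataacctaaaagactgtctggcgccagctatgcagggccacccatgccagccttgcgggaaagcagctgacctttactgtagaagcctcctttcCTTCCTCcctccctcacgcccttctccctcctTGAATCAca
Gpnmb (chr6:49036268-49036517, plus strand): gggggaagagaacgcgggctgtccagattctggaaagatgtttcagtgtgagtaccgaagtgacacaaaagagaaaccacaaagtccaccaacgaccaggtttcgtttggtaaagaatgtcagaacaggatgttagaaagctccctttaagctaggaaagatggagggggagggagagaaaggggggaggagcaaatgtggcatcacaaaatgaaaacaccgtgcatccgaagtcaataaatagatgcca
Cd68 (chr11:69666171-69666420, minus strand): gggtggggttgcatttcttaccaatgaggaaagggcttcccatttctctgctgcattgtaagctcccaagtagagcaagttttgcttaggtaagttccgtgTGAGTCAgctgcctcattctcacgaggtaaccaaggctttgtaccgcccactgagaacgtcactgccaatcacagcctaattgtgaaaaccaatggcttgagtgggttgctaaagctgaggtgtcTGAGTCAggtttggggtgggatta
Spp1 (chr5:104434861-104435110, plus strand): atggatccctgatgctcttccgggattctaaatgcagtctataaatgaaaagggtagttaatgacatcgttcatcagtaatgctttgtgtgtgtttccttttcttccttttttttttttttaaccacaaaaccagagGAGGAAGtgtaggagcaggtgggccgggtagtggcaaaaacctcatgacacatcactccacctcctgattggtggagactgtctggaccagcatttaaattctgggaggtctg
The Trem2 window held an ETS core on the reverse strand at -41 and a TGANTCA match at -9, counted in bases from the start. That match has A in the middle, so it is not the strict AP-1 motif. Cd68 held AP-1 motifs at -149 and -24, and Spp1 an ETS core at -113. Gpnmb had no capitals before its start but an AP-1 motif 9 bases after it. In windows from 250 bases before to 50 after the start, GAGGAAG lay in 3 of the 11 windows of the 10 genes (Cd63, Spp1 and Trem2) and in 13.6% of 32851 promoters. TGANTCA lay in 4 of the 11 (Cd68, Gpnmb, Itgax and Trem2) and in 7.81% of all promoters, with any middle base counted in both. The E-box CACGTG, the M-box TCATGTG read by MiT/TFE factors and the PPAR-RXR direct repeat were found in none of the 11 windows, and in 7.15%, 3.77% and 0.0396% of all promoters. A match is a description of the letters and not of binding.

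The markers covered a wide range of abundance. Scaled for length, in CPM per kilobase of the length given in the files, Spp1 (77.0 ± 24.4) and Lyz2 (71.0 ± 4.21) led in WT livers at 2 months, and their ranges overlapped. Cd68, Lgals3 and Cd9 followed between 9.61 and 14.6. Cd63 and Gpnmb came next, and Itgax, Ccr2 and Trem2 were lowest, with Trem2 at 0.829 ± 0.226. By 5 months in WT livers, Lyz2 stood at 274 ± 45.3 and Spp1 at 135 ± 48.5 CPM per kilobase without overlap, and Trem2 (3.17 ± 0.804) had passed Ccr2 (1.38 ± 0.149), the lowest of the 10. In KO-labelled livers at 5 months, the levels per kilobase of Cd63, Lgals3, Cd68 and Cd9 lay between 16.1 and 17.3, each overlapping the next in order.

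**Figure D1:**
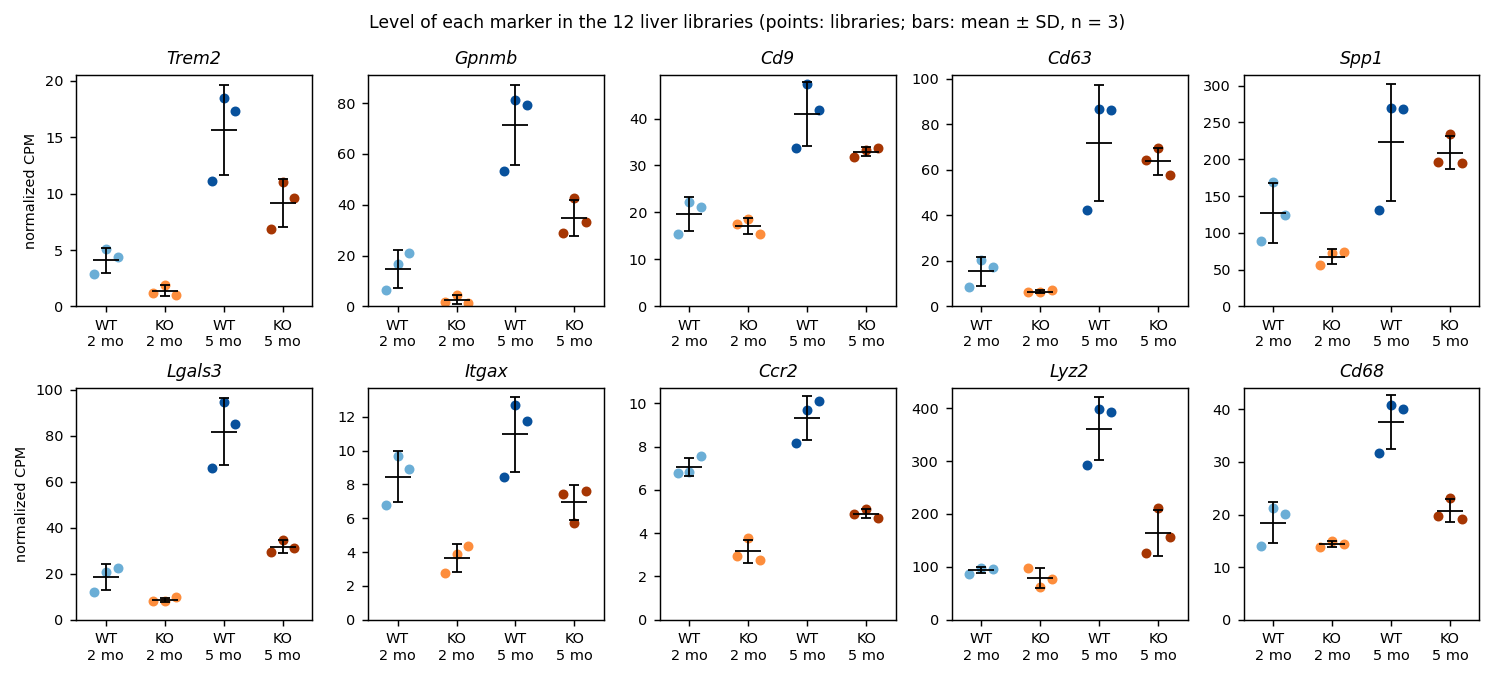
Normalized CPM (y axis, from 0) of each of the 10 markers in the 4 groups (x axis), with 1 point per library and bars for the mean ± SD of 3 libraries. Every marker was higher at 5 than at 2 months in the mean of both genotypes, and the groups of Lgals3, Lyz2, Cd68, Gpnmb, Trem2, Ccr2 and Itgax do not overlap between genotypes at 5 months.

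The first comparison asked whether the markers differed between genotypes after 2 months of FFD. All 10 log2 fold changes were below 0, and 4 genes were called lower in KO-labelled livers: Trem2, Itgax, Ccr2 and Lgals3. With the replicate number as a block, 6 were called lower, Cd63 and Spp1 among them, and 2.65% of all genes were. Without the block, among all 14573 genes tested, 1.78% were called lower (2.39% with library size alone), and 50.9% of them had a log2 fold change below 0. The median of the 10 was -1.14 against -0.0048 for all genes. Without overlap between the groups, 7 of the 10 were lower, against 11.3% of all genes.

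Ccr2 (ENSMUSG00000049103, chromosome 9 of mm10, 124101950 to 124113557), the receptor through which CCL2 draws monocytes out of marrow and blood, had 6.78, 6.85 and 7.54 CPM in the WT livers and 2.94, 3.75 and 2.76 CPM in the KO-labelled livers. The WT libraries were tightly grouped and lay above all 3 KO-labelled libraries, for a log2 ratio of -1.18 (SE 0.182, edgeR adjusted p = 0.0107). Itgax (ENSMUSG00000030789, chromosome 7, 128129547 to 128150657), which encodes the integrin alpha chain CD11c, had 6.78, 9.71 and 8.90 CPM in WT and 2.74, 3.87 and 4.36 CPM in KO-labelled livers. The groups did not overlap, and Itgax fell by 1.21 in log2 units (SE 0.213, edgeR adjusted p = 0.0180).

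Trem2 (ENSMUSG00000023992, chromosome 17, 48346401 to 48354147), the receptor for lipids and apolipoproteins after which the lipid-associated state is often named, had 2.88, 5.06 and 4.37 CPM in WT and 1.19, 1.93 and 1.04 CPM in KO-labelled livers. No KO-labelled library reached the lowest WT library, and the log2 fold change was -1.60 (SE 0.308, edgeR adjusted p = 0.0237). Lgals3 (ENSMUSG00000050335, chromosome 14, 47367751 to 47386160), which encodes a galactoside-binding lectin released by activated macrophages, had 12.0, 20.6 and 22.6 CPM in WT and 8.26, 8.02 and 9.77 CPM in KO-labelled livers. The groups stood apart, although WT replicate 1 lay nearer to the KO-labelled libraries than to its own group, and Lgals3 fell by 1.09 in log2 units (SE 0.227, edgeR adjusted p = 0.0424).

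Gpnmb (ENSMUSG00000029816, chromosome 6, 49036546 to 49070929) had the lowest fold change of the 10 but also the widest error. Its CPM were 6.46, 16.7 and 21.2 in WT and 1.86, 4.66 and 1.27 in KO-labelled livers. The groups did not overlap, but with a log2 ratio of -2.57 (SE 0.684) the edgeR adjusted p was 0.138. Cd63 (ENSMUSG00000025351, chromosome 10, 128900989 to 128912822), a tetraspanin of late endosomes and lysosomes, had 8.41, 20.4 and 17.2 CPM in WT and 6.25, 6.20 and 7.08 CPM in KO-labelled livers. Spp1 (ENSMUSG00000029304, chromosome 5, 104435118 to 104441050), a secreted ligand of integrins and CD44, had 88.4, 169 and 124 CPM in WT and 56.5, 72.1 and 74.4 CPM in KO-labelled livers. Both genes were lower in every KO-labelled library but were not called, at log2 fold changes of -1.25 (SE 0.311) and -0.92 (SE 0.258) with edgeR adjusted p = 0.0848 and 0.143. With the replicate number as a block both passed, at -1.18 and -0.88 with edgeR adjusted p = 0.0406 and 0.00514.

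Lyz2, Cd68 and Cd9 had the smallest log2 fold changes of the 10. Lyz2 (ENSMUSG00000069516, chromosome 10, 117277331 to 117282321), the lysozyme of macrophages and neutrophils, had 87.2, 97.9 and 95.1 CPM in WT and 97.4, 60.9 and 77.4 CPM in KO-labelled livers. Cd68 (ENSMUSG00000018774, chromosome 11, 69664213 to 69666153), a scavenger receptor family protein of lysosomes, had 13.9, 21.3 and 20.0 CPM in WT and 13.9, 15.0 and 14.3 CPM in KO-labelled livers. Cd9 (ENSMUSG00000030342, chromosome 6, 125460266 to 125494791), a tetraspanin of the cell surface, had 15.5, 22.2 and 21.3 CPM in WT and 17.6, 18.7 and 15.3 CPM in KO-labelled livers. The groups overlapped for each of these genes, and the log2 fold changes of -0.26, -0.37 and -0.21 (SE 0.157, 0.149 and 0.144) were not called (edgeR adjusted p = 0.439, 0.219 and 0.496).

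The count of calls at 2 months moved with single libraries, for the 10 genes as for all genes. Without WT replicate 1, 7 of the 10 were called lower, with Gpnmb, Lyz2 and Cd9 not among them, and 5.25% of all genes were. The count of members called was 1 without WT replicate 2 and 0 without WT replicate 3, where 0.458% and 0.539% of all genes were called lower. The log2 ratios of Trem2 were then -1.42 and -1.54, and those of Itgax -1.10 and -1.17 (edgeR adjusted p = 0.110 and 0.0875 for Trem2, and 0.0777 and 0.0723 for Itgax). Members called numbered 0 without KO-labelled replicate 1 and 2 without replicate 2 or replicate 3 of that group, against 0.483%, 0.814% and 0.683% of all genes. With 1 library fewer, these fold changes stayed near their values in the full set, while fewer of all genes passed, except without WT replicate 1.

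At 5 months, again all 10 log2 fold changes were below 0 (as were 50.9% of all genes), and 6 genes were called lower in KO-labelled livers: Lgals3, Lyz2, Gpnmb, Ccr2, Cd68 and Itgax. The edgeR test called 9.51% of 14138 genes lower in this comparison (13.4% with library size alone). The median of the 10 was -0.81 and that of all genes was -0.0058. In 7 of the 10 the groups did not overlap, as in 19.1% of all genes in that direction.

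Lgals3 had 66.0, 94.6 and 85.0 CPM in WT and 29.6, 34.7 and 31.2 CPM in KO-labelled livers. The lowest WT library stood well above the highest KO-labelled library, and Lgals3 fell by 1.35 in log2 units (SE 0.134, edgeR adjusted p = 0.000269). Lyz2 had 292, 398 and 393 CPM in WT and 125, 212 and 156 CPM in KO-labelled livers. Here the groups that had overlapped at 2 months stood apart, with a log2 ratio of -1.13 (SE 0.242, edgeR adjusted p = 0.0350). Cd68 likewise separated, with 31.7, 40.9 and 40.1 CPM in WT, 19.7, 23.2 and 19.1 CPM in KO-labelled livers and a log2 ratio of -0.85 (SE 0.111, edgeR adjusted p = 0.000321).

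Gpnmb had 53.4, 81.3 and 79.4 CPM in WT and 28.8, 42.6 and 33.1 CPM in KO-labelled livers, and fell by 1.03 in log2 units (SE 0.232, edgeR adjusted p = 0.0389). Trem2 had 11.1, 18.5 and 17.4 CPM in WT and 6.83, 11.1 and 9.60 CPM in KO-labelled livers. The highest KO-labelled library lay just under the lowest WT library, and the log2 fold change of -0.77 was not called (SE 0.237, edgeR adjusted p = 0.0615). Ccr2 had 8.19, 9.69 and 10.1 CPM in WT and 4.90, 5.10 and 4.71 CPM in KO-labelled livers, with little spread in either group and a log2 ratio of -0.92 (SE 0.143, edgeR adjusted p = 0.000707). Itgax, with 8.42, 12.7 and 11.8 CPM in WT and 7.45, 5.72 and 7.63 CPM in KO-labelled livers, changed by -0.65 in log2 units (SE 0.171, edgeR adjusted p = 0.0181).

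Cd63, Spp1 and Cd9 overlapped between the genotypes at 5 months. Spp1 had 130, 270 and 268 CPM in WT and 197, 235 and 195 CPM in KO-labelled livers, so that WT replicate 1 was the lowest of all 6 and the other WT libraries the highest. The same order held for Cd63, with 42.5, 87.0 and 86.2 CPM in WT and 64.2, 69.5 and 57.7 CPM in KO-labelled livers. Cd9 had 33.7, 47.3 and 41.8 CPM in WT and 31.8, 33.2 and 33.8 CPM in KO-labelled livers. None was called, at log2 fold changes of -0.09, -0.17 and -0.30 (SE 0.332, 0.323 and 0.109) with edgeR adjusted p = 0.896, 0.792 and 0.0797.

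WT replicate 1 decided several of these values. Without it, 9 of the 10 genes were called lower, with Spp1 at -0.36, Cd63 at -0.43, Cd9 at -0.43 and Trem2 at -0.97 (edgeR adjusted p = 0.00738, 0.00137, 0.00143 and 0.00290), whereas Lyz2 was not called, at -1.26 (edgeR adjusted p = 0.0555), and 10.9% of all genes were called lower. Without WT replicate 2 or replicate 3, 3 of the 10 were called, and 5.74% or 5.72% of all genes. Gpnmb was then at -0.92 and -0.94 and Lyz2 at -1.05 and -1.06, near their values in the full set, and neither was called (edgeR adjusted p = 0.116 and 0.125 for Gpnmb, and 0.121 and 0.118 for Lyz2). Without 1 of these libraries, Spp1 was slightly higher in KO-labelled livers, at 0.08 without replicate 2 and 0.07 without replicate 3. Lgals3, Ccr2 and Cd68 were called under every alternative tried at 5 months, whereas the calls of Gpnmb, Lyz2 and Itgax were lost under 6, 5 and 3 of 13.

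**Figure D2:**
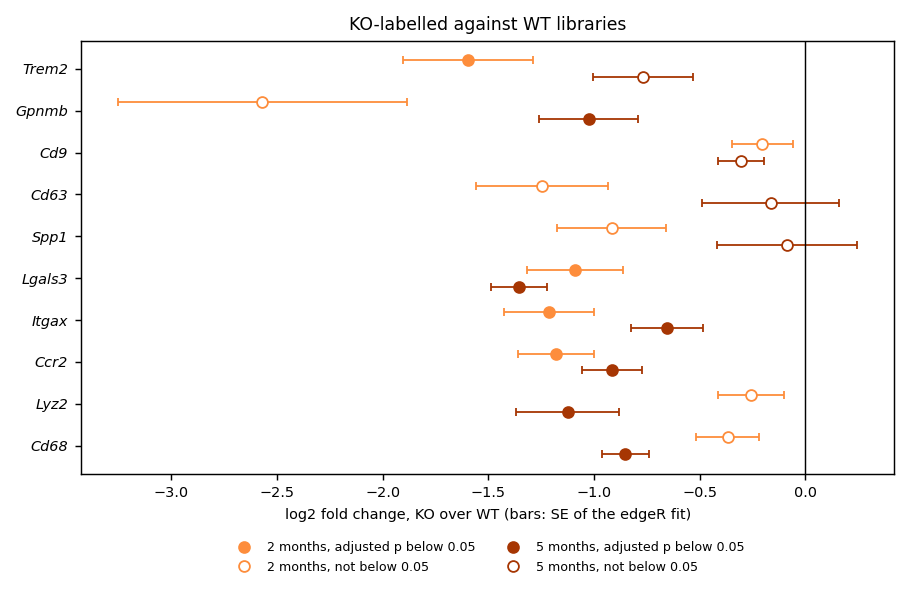
Log2 fold change of KO-labelled over WT livers (x axis, bars for the SE of the fit) for each marker (y axis) at 2 months (pale) and 5 months (dark), with filled points for an edgeR adjusted p below 0.05. All 20 points lie below 0, with Gpnmb lowest at 2 months (-2.57) and Lgals3 lowest at 5 months (-1.35).

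Genes that work with the markers were followed in fixed lists. Of the TREM2-DAP12 signalling genes, none of the 8 tested was called at 2 months (median log2 fold change -0.29) and 7 of 9 were lower at 5 months (median -0.72). Without WT replicate 1 at 2 months, an alternative added after the data were seen and given below for each list whose count it changed, 2 of the 8 were lower at 2 months (median -0.37). Tyrobp, the adaptor DAP12 that carries the TREM2 signal, fell by 1.13 on the log2 scale at 5 months (edgeR adjusted p = 4.01e-05), and Syk, the kinase that DAP12 recruits, by 0.78 (edgeR adjusted p = 0.00583). Plcg2 and Vav1, which act after Syk, fell by 0.95 and 0.72 (edgeR adjusted p = 0.00238 and 0.0104). Among the receptors of osteopontin and the beta chain that pairs with CD11c, 0 of 8 were called at 2 months and 4 at 5 months (medians -0.10 and -0.23), and 2 of 8 were lower at 2 months without that WT library. The 4 called at 5 months were Cd44 (-1.10, edgeR adjusted p = 1.73e-05), Itgb2, the CD11c partner (-0.95, edgeR adjusted p = 0.00101), Itga4 (-0.79, edgeR adjusted p = 0.0132) and Itga9 (-0.31, edgeR adjusted p = 0.00536).

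Few signals that recruit and sustain monocytes were called. None of the 7 recruitment and growth factor genes tested was called at 2 months, and 2 of 8 were lower at 5 months (median -0.61). Ccl2, the main ligand of CCR2, fell by 1.26 in log2 units (edgeR adjusted p = 0.00132), from 6.69 ± 0.877 to 2.74 ± 0.803 CPM (SD, n = 3 each), and Csf1, the macrophage growth factor, by 0.45 (edgeR adjusted p = 0.0268). Of the monocyte markers, 1 of 13 was lower at 2 months and 9 of 14 at 5 months, where the median was -1.27, and 2 of 13 were lower at 2 months without WT replicate 1. The gene called at 2 months was Cx3cr1, the fractalkine receptor, at -1.15 (edgeR adjusted p = 0.0401). F13a1, Itgam and Chil3 fell by 2.13, 1.86 and 1.55 at 5 months (edgeR adjusted p = 0.00295, 0.00342 and 0.00254), all from means under 4 CPM.

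A further list of lipid-associated macrophage genes, which are also used by hepatocytes and other cells, had 3 of 18 lower at 2 months and 7 of 19 lower at 5 months (medians -0.44 and -0.32). Without WT replicate 1 at 2 months, 8 of 18 were lower at that time (median -0.55), against 5.25% of all genes. Lgals1, another galectin, fell by 2.11 at 2 months and 0.99 at 5 months in log2 units (edgeR adjusted p = 0.0400 and 1.08e-06). Lpl, which releases fatty acids from lipoproteins, fell by 0.66 and 1.34 (edgeR adjusted p = 0.0415 and 0.00682). Mmp12, the macrophage elastase, was at -2.01 at 2 months, where it was not called (edgeR adjusted p = 0.129), and at -0.77 at 5 months (edgeR adjusted p = 0.0487). The actin-capping Capg fell by 0.91 at 5 months (edgeR adjusted p = 0.000491). Of the MiT/TFE factors, which control lysosomal genes and Gpnmb, none of 4 was called at 2 months and 1, Tfeb, was lower at 5 months (-0.45, edgeR adjusted p = 0.0168).

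Markers of resident macrophages were measured beside the 10 genes. Of 8 Kupffer cell markers, 2 were higher and none lower in KO-labelled livers at 2 months (median 0.47), and 7 were lower at 5 months (median -1.11). Timd4, a phosphatidylserine receptor of long-resident Kupffer cells, rose by 0.87 on the log2 scale at 2 months and fell by 1.38 at 5 months (edgeR adjusted p = 0.0154 and 0.0364). Clec4f, the lectin that defines mouse Kupffer cells, had 109, 113 and 97.2 CPM in WT and 134, 129 and 134 CPM in KO-labelled livers at 2 months (log2 fold change 0.31, edgeR adjusted p = 0.0536). Without WT replicate 1, 3 of the 8 were higher and none lower at 2 months. Of the 14 pan-macrophage markers, none was called lower at 2 months (median -0.04), and 12 were lower at 5 months (median -0.85). Without WT replicate 1, 1 of the 14 was lower and 1 higher at 2 months. At 2 months, their summed level was 617 to 787 CPM in WT and 746 to 823 CPM in KO-labelled livers, whereas the sum of the 10 genes was 248 to 389 CPM against 195 to 209 CPM. At 5 months, both sums were lower in KO-labelled livers, at 964 to 1077 against 1437 to 1763 CPM for the pan-macrophage markers and 515 to 672 against 677 to 1059 CPM for the 10 genes. Spp1 and Lyz2, neither of them called at 2 months, had the highest CPM of the 10 genes in every group and weighed most in that sum.

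**Figure D3:**
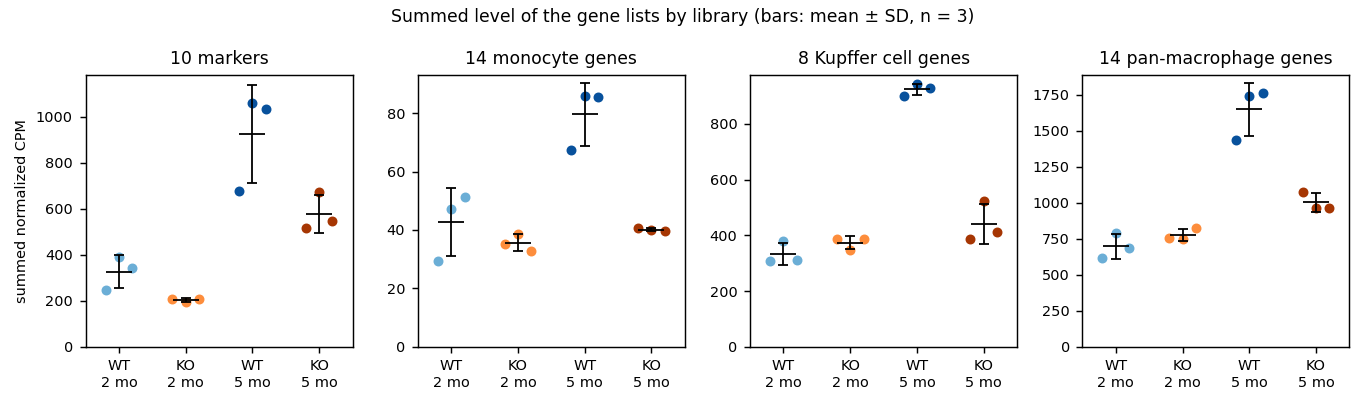
Summed normalized CPM (y axis, from 0) of the 10 markers, 14 monocyte genes, 8 Kupffer cell genes and 14 pan-macrophage genes by group (x axis), with 1 point per library and bars for the mean ± SD. At 2 months the sum of the 10 markers lies lower in KO-labelled livers while the Kupffer cell and pan-macrophage sums overlap between genotypes, and at 5 months all 4 sums lie lower without overlap. Spp1 and Lyz2 weigh most in the sum of the 10 markers.

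Each gene was therefore also expressed as a percent of the summed CPM of the 14 pan-macrophage markers. With 3 libraries against 3, the exact two-sided permutation test cannot give a p below 0.1, so none of these ratios could pass 0.05. At 2 months, all 10 percents had lower means in KO-labelled livers, and 9 did so without overlap (Lyz2 overlapped). Gpnmb dropped from 2.08 ± 1.02% to 0.342 ± 0.250% and Trem2 from 0.582 ± 0.101% to 0.181 ± 0.0692% (SD, n = 3 each, exact permutation p = 0.1 for both). Itgax, Ccr2 and Cd63 differed by -1.38, -1.33 and -1.30 on the log2 scale of the percent.

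At 5 months, the sum that these percents are taken of was itself lower in KO-labelled livers (964 to 1077 against 1437 to 1763 CPM), so a gene with the same CPM in both genotypes has a higher percent there by construction. Lgals3 (4.95 ± 0.439% in WT and 3.19 ± 0.430% in KO-labelled livers) and Ccr2 (0.566 ± 0.00822% and 0.491 ± 0.0370%) were lower without overlap (exact permutation p = 0.1 for both). Spp1 (13.3 ± 3.63% and 21.0 ± 3.12%), Cd63 (4.28 ± 1.15% and 6.38 ± 0.712%) and Cd9 (2.48 ± 0.209% and 3.30 ± 0.303%) had higher percents without overlap, while their CPM overlapped between genotypes (log2 fold changes of -0.09, -0.17 and -0.30). No rise of these 3 genes was measured in CPM. Trem2, Gpnmb, Itgax, Lyz2 and Cd68 overlapped, and for Trem2 the means were 0.941 ± 0.150% and 0.927 ± 0.264%. Against Adgre1 and Csf1r alone, the log2 differences of Trem2, Ccr2 and Cd68 turned to 0.20, 0.05 and 0.11.

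**Figure D4:**
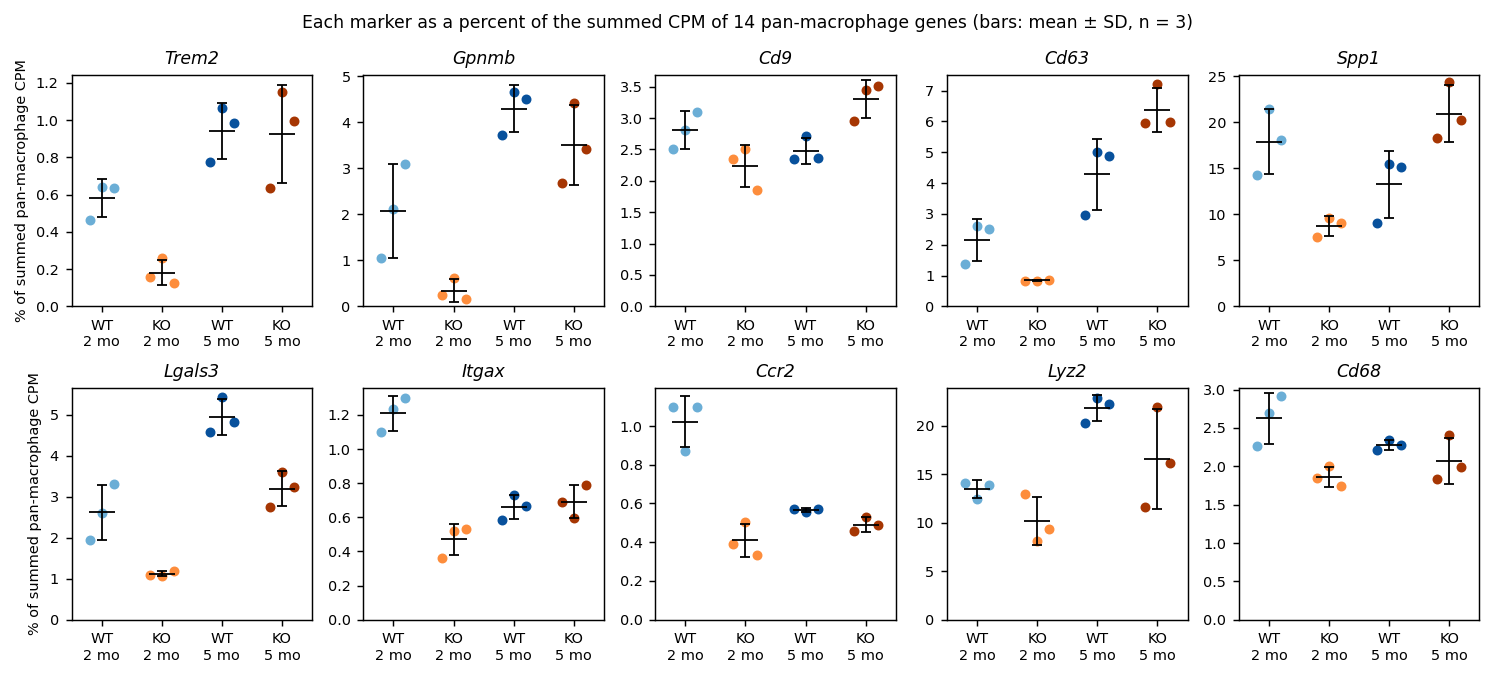
Level of each marker as a percent of the summed CPM of 14 pan-macrophage genes (y axis, from 0) by group (x axis), with 1 point per library and bars for the mean ± SD. At 2 months 9 of the 10 markers lie lower in KO-labelled livers without overlap, and at 5 months, where the summed pan-macrophage CPM was lower in KO-labelled livers, the percents of Cd9, Cd63 and Spp1 lie higher.

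Other cell types that can hold these transcripts were measured beside them. The 12 neutrophil markers summed to 7.54 to 10.4 CPM in WT and 5.16 to 6.56 CPM in KO-labelled livers at 2 months, and to 8.78 to 15.7 CPM in WT and 5.09 to 7.87 CPM at 5 months. Only 3 of the 12 were abundant enough to test at 5 months, and 2 of these, S100a9 and Csf3r, were lower (-1.25 and -1.16, edgeR adjusted p = 0.0180 and 0.00333), while Ly6g, Ngp, Camp, Ltf, Mpo and Elane stayed under 1 CPM in every library. Cholangiocyte markers summed to 19.8 to 26.1 CPM in WT and 27.2 to 32.4 CPM in KO-labelled livers at 5 months, where 1 of 5 tested (Sox9) was higher, and to 26.9 to 29.0 against 27.4 to 32.3 CPM at 2 months with no call. Of the dendritic cell markers, 0 of 7 were called at either time, and of the platelet markers 0 of 2 at 2 months and 0 of 3 at 5 months, although their sums were lower without overlap at both times (3.13 to 3.77 against 5.13 to 5.93 CPM at 2 months). The 8 hepatocyte markers summed to 52280 to 57170 CPM in WT and 72120 to 82820 CPM in KO-labelled livers at 5 months. Their sum, most of it Alb, was higher without overlap at both times. Of the single genes, 0 of 8 were called at 2 months, and 4 of 8 were higher there without WT replicate 1, against 5.31% of all genes. At 5 months 3 of 8 were called higher, whereas 2 of 8, Apoa1 and Fgb, had slightly lower means in KO-labelled livers. Stellate cell markers summed to 743 to 863 against 584 to 595 CPM at 2 months, with 1 of 10 called lower (4 of 10 without WT replicate 1), and to 871 to 986 against 696 to 778 CPM at 5 months, with 5 of 10 called lower. T, NK and B cell markers had 2 of 9 lower at 5 months, and endothelial markers 2 of 7 (1 of 7 at 2 months without WT replicate 1). The part of these shifts in the levels of the 10 genes was not tested.

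The next comparison followed each genotype from 2 to 5 months. Whether libraries of the 2 times were prepared together is not stated, and diet duration, age and any batch cannot be told apart. In WT livers, all 10 genes had a log2 fold change above 0 (as had 48.4% of all genes), and 8 were called higher, as were 24.6% of 15127 genes (20.2% with library size alone). The median of the 10 was 1.48, against -0.02 for all genes, and in 8 genes the groups did not overlap, as in 28.9% of all genes in that direction. Gpnmb rose by 2.25, Cd63 by 2.21, Lgals3 by 2.13, Lyz2 by 1.93 and Trem2 by 1.91 in log2 units (SE 0.451, 0.352, 0.213, 0.226 and 0.263, with edgeR adjusted p of 0.00341 or lower). Cd9 and Cd68 rose by 1.04 and 1.01, and Ccr2, from 7.06 ± 0.421 to 9.32 ± 1.00 CPM (SD, n = 3 each), by 0.39 (edgeR adjusted p = 0.0421, lost under 8 of 19 alternatives). Spp1 (0.80, edgeR adjusted p = 0.0647) and Itgax (0.36, edgeR adjusted p = 0.143) were not called, and their groups overlapped. The rise in WT livers was not particular to the 10 genes. Of the 14 pan-macrophage markers, 12 were called higher and 1 lower (median 1.44). Of the 8 Kupffer cell markers, 6 were called higher and 0 lower (median 1.04), with 5 higher without WT replicate 1 at 2 months.

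In KO-labelled livers, all 10 were called higher at 5 months without overlap, against 21.7% of all genes called higher (17.8% with library size alone) and 28% higher without overlap. The median log2 fold change was 1.34, with 49% of all genes above 0, and that of all genes was -0.01. Gpnmb rose by 3.82, Cd63 by 3.28 and Trem2 by 2.74 in log2 units (SE 0.554, 0.382 and 0.3025). Gpnmb went from 2.60 ± 1.82 to 34.8 ± 7.05 CPM and Trem2 from 1.39 ± 0.478 to 9.17 ± 2.15 CPM (SD, n = 3 each). Lgals3, Spp1 and Lyz2 rose by 1.86, 1.62 and 1.06, and Cd9, Itgax, Ccr2 and Cd68 by 0.94, 0.90, 0.64 and 0.52. The largest edgeR adjusted p among the 10 was 0.0102, that of Cd68. Ccr2 and Itgax in KO-labelled livers at 5 months, at 4.90 ± 0.198 and 6.93 ± 1.05 CPM, stood below their WT means at 2 months (7.06 ± 0.421 and 8.46 ± 1.51 CPM), a description across both variables with no test. By contrast, the pan-macrophage list had 9 of 14 higher and 3 lower over time in KO-labelled livers, and the Kupffer cell list 1 higher and 3 lower of 8.

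**Figure D5:**
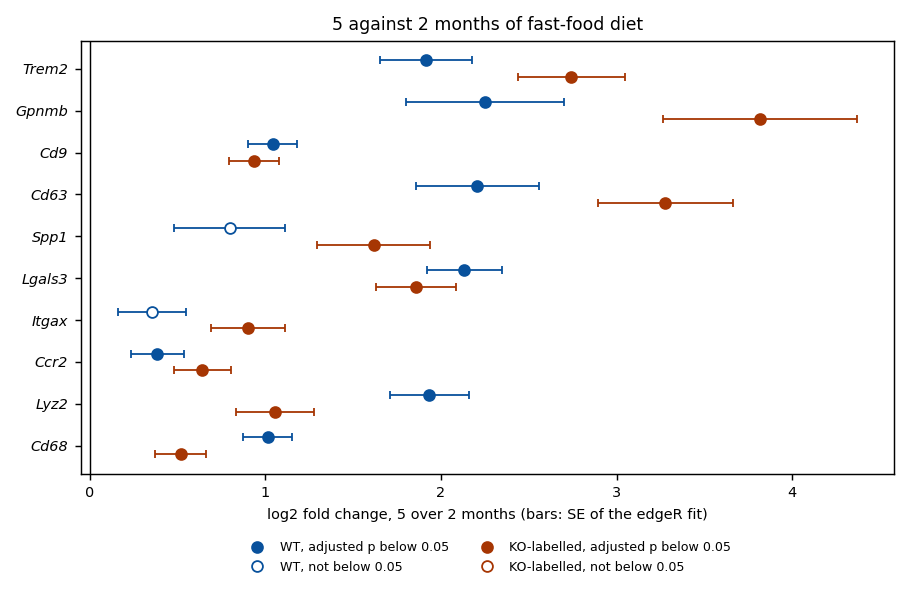
Log2 fold change of 5 over 2 months of FFD (x axis, bars for the SE of the fit) for each marker (y axis) in WT (blue) and KO-labelled livers (brown), with filled points for an edgeR adjusted p below 0.05. All 20 points lie above 0, Spp1 and Itgax in WT livers are open, and Gpnmb in KO-labelled livers is highest (3.82).

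Whether the genotype effect itself differed between the times was tested as an interaction in the fit of all 12 libraries. None of the 10 genes was called by edgeR, against 1.57% of all genes in either direction, and 2 had an unadjusted p below 0.05. These were Lyz2 (-0.88, SE 0.311, edgeR adjusted p = 0.226) and Cd68 (-0.50, SE 0.201, edgeR adjusted p = 0.258), whose genotype effect was further below 0 at 5 months. DESeq2 called Lyz2 alone (DESeq2 adjusted p = 0.0266), and edgeR without a filter on low counts called Cd68 alone (edgeR adjusted p = 0.0256). Gpnmb, Cd63, Trem2, Spp1 and Itgax had estimates above 0, at 1.56, 1.07, 0.83, 0.82 and 0.55 (SE 0.72, 0.509, 0.403, 0.444 and 0.287), and none was called. The Kupffer cell list had 6 of 8 called lower in the same test and the pan-macrophage list 5 of 14.

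The genes whose log2 CPM ran most like those of Trem2, Gpnmb and Ccr2 were sought over the 12 libraries, which share the 4 group means and the same library scaling. With Trem2, these were Plpp2 (Pearson r = 0.990), Gpnmb (0.988), Tagln2 (0.982), Mmp12 (0.982) and Tnfrsf12a (0.978). With Gpnmb, they were Mmp12 (0.994), Anxa2 (0.988), Trem2 (0.988), Anxa5 (0.983) and Ifi27l2b (0.981). With the group means removed, r between Trem2 and Gpnmb was 0.881. None of these was among the 5 genes most like Ccr2, which were Plekha1 (0.978), Pam (0.975), Nap1l1 (0.956), Akr1b8 (0.944) and Mogat1 (0.941).

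Read sharing limits few of the 10 genes. Cd9 overlaps Gm26728 and Gm28809, which had at most 2 counts, and Spp1 overlaps Gm42793, which had at most 10. Reads of Lyz2 and of its close copy Lyz1 (0 to 28 counts per library), or of Cd63 and its pseudogene Cd63-ps (7 to 154 counts), may have been split between the copies. The members' own counts ran from 23 for Trem2 to 7514 for Lyz2, so the lowest Trem2 libraries carry the largest counting error.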

How the data were processed

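Whole-liver RNA of mice was sequenced by the authors in 12 libraries, with 1 table of raw counts per gene deposited for each. The submitters' processing notes name HISAT2 and mm10, whereas the study's methods name STAR as the aligner. The counter, annotation version and strand setting are not given in the sources used here. Gene bounds are those in the deposited count tables. Counts were tested as deposited with edgeR 4.0.16 (R 4.3.3, limma 3.58.1) by TMM scaling, filterByExpr, robust quasi-likelihood fits and Benjamini-Hochberg adjustment over all genes tested, at a threshold of 0.05. Genotypes were compared in the 6 libraries of each time. Changes over time and the interaction came from 1 fit of all 12. DESeq2 1.42.0, other scalings, filters and thresholds, a replicate block and leaving out each library were the alternatives. All 10 genes passed the filter in every fit. Normalized CPM used TMM factors over the 12 libraries. Fits were tested on simulated data as a check of the code, with limits that were loosened during the work and an outcome not reported here. The interaction has less power than the comparisons of genotypes.

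The members and gene lists were chosen with earlier results of these data known. The text names all 10 members, up to 4 examples of each list with the largest change among genes called at 5 months (Clec4f, Cx3cr1 and Plin2 were named after their values were seen, and some list genes are not reported here), the 5 genes most like Trem2, Gpnmb and Ccr2, and Pparg. The labels give the groups the same repeat numbers. Over 5000 genes, libraries with the same number deviated together from their group means at 2 months (r = 0.221, 0.325 and 0.139). They did not at 5 months (r = -0.0751, -0.0618 and -0.185). The calls given are those of fits without pairs at both times, unless the replicate block is named. That block was used only as an alternative. With it, 6 of the 10 markers were called lower at 2 months, against 4 without it.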

Additional observations from a re-analysis of the deposited data

Results flagged for a closer look

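The genotype effect differed between the times, by the interaction test of edgeR over all genes, for none of the 10 markers and for 7 of the genes named as examples of the lists followed beside them. The lists hold further called genes, since 6 of the 8 Kupffer cell markers and 5 of the 14 pan-macrophage markers were called lower in this test, and up to 4 examples of a list were named. In each of the 7 the log2 fold change of KO-labelled over WT livers was lower at 5 than at 2 months. The examples were picked by their change at 5 months, where all 7 were lower in KO-labelled livers. That choice itself favours this direction, so the shared direction is no separate result. The differences were -2.27 for Timd4, -1.81 for Folr2 and -1.04 for Cd5l among the Kupffer cell markers (edgeR adjusted p = 0.0167, 0.0137 and 0.0112). Of the pan-macrophage markers, Fcgr1, a receptor for antibodies, differed by -1.13 and Aif1 by -1.10 (edgeR adjusted p = 0.0470 and 0.0481). Tyrobp, the adaptor of TREM2, differed by -0.78 (edgeR adjusted p = 0.0269), and Clec4g, a lectin of sinusoidal endothelium, by -0.77 (edgeR adjusted p = 0.00859). For Trem2, the receptor that signals through Tyrobp, the same difference was not called (0.83, edgeR adjusted p = 0.358). Timd4 rose at 2 months and fell at 5 months.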

How the results depend on the processing

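Of the 50 results for single markers, 48 kept their direction under every alternative. With 1 library left out, Spp1 at 5 months ran from -0.3593 to 0.0762 (0.0709 and 0.0762 without WT replicate 3 and replicate 2), and the interaction of Cd9 from -0.23 to 0.0436 (0.0436 without WT replicate 1 at 2 months and 0.0142 without WT replicate 2 at 5 months). Members called at 2 months numbered 7 with DESeq2 (3.17% of all genes lower), 7 at an unadjusted p below 0.05 with a 1.3-fold change (6.48%), and 0 to 7 with 1 library left out (0.458% to 5.25%). At 5 months, 3 to 9 were called with 1 library left out (5.72% to 10.9%). The interaction called 1 with DESeq2 (4.13% of all genes in either direction), 1 without a filter (2.76%) and 2 at the unadjusted threshold (10.3%). With the replicate block, the count was 6 at 2 months (2.65%) and 8 at 5 months (8.52%), where the libraries share only a number and Trem2 (edgeR adjusted p = 0.000945) and Cd9 (0.0499) were added. Over time, the count with the block was 9 in WT livers (24.7% of all genes higher) and 10 in KO-labelled livers (21.7%). For the interaction it was 0, against 1.78% of all genes in either direction. Ratios to the pan-macrophage sum at 5 months turned sign for Trem2 (0.2018 against Adgre1 and Csf1r, -0.2295 to 0.1985 with 1 library left out), Itgax (-0.0385 to 0.1692 with 1 library left out), Ccr2 (0.0451) and Cd68 (0.1092, both against Adgre1 and Csf1r). The causes were not tested. Library size alone moved the median of all genes to -0.10 over time in WT livers. With 3 libraries a group, no ratio could pass an exact test.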
